A study of Mus musculus with 8 samples.

Results

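The 2 stellate ganglion subtypes that carry an acetylcholine name, Ach1 and Ach2, were compared with each other. Members were taken from the authors' own annotation, which names 64 neurons Ach1 and 62 neurons Ach2, so that the comparison covered 126 of the 1303 neurons in the data. The other neurons carry the names NA1a, NA1b, NA1c, NA2 and NA3, for noradrenergic subtypes, or Glut. The mice were C57BL6/J animals of 8 to 10 weeks, of 1 condition, all of which had received an AAV with GFP in the heart and an AAV with tdTomato in the front paws, to mark neurons that project there. Both stellate ganglia of a mouse were combined and profiled by droplet single-cell RNA-seq, with each mouse as a replicate. There is no untreated group. A UMI (unique molecular identifier) stands for 1 captured RNA molecule. Levels are given as the mean over neurons of UMIs per 10000 UMIs of the neuron.

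Most neurons of a stellate ganglion are noradrenergic. They make noradrenaline with the enzymes tyrosine hydroxylase (Th), aromatic amino acid decarboxylase (Ddc) and dopamine beta-hydroxylase (Dbh), load it into vesicles with Slc18a2 and take it back up with Slc6a2, and many release neuropeptide Y (Npy) with it. A minority of sympathetic neurons, known for supplying sweat glands of the paw, release acetylcholine in its place. These make it with choline acetyltransferase (Chat), load it into vesicles with Slc18a3, take up choline with Slc5a7, and often contain vasoactive intestinal peptide (Vip).

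The 5 genes on which the subtypes were compared first are Vip, Slc18a3, Chat, Dbh and Npy. Slc18a3 lies inside Chat, on the same strand, and its first base is 1059 bases downstream of that of Chat. The promoter windows of the 5 genes are shown because these genes differ between the subtypes in both directions. Each runs from 250 bases before to 50 bases after the annotated start in RefSeq, build GRCm38.p6, and capitals mark the letters TGACG, or CGTCA where they lie on the other strand, which is the half-site of the cyclic AMP response element.
Vip promoter, chr10:5638968-5639267, plus strand: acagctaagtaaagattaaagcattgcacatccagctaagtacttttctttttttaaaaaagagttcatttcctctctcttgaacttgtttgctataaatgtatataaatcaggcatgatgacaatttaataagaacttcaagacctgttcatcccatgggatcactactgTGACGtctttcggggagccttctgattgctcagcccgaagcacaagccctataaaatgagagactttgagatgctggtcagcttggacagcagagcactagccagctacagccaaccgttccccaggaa
Slc18a3 promoter, chr14:32464801-32465100, minus strand: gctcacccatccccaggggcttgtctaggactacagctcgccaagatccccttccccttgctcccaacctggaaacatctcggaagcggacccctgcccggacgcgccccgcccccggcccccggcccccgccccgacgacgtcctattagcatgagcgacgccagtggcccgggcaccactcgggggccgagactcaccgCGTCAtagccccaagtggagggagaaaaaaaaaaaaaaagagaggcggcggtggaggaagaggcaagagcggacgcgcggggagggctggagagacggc
Chat promoter, chr14:32465860-32466159, minus strand: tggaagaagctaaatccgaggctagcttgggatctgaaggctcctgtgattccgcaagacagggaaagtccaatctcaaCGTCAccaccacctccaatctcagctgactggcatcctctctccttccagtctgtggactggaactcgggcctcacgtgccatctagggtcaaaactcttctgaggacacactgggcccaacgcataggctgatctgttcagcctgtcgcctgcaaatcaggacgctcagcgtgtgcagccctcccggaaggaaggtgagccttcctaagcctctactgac
Dbh promoter, chr2:27165257-27165556, plus strand: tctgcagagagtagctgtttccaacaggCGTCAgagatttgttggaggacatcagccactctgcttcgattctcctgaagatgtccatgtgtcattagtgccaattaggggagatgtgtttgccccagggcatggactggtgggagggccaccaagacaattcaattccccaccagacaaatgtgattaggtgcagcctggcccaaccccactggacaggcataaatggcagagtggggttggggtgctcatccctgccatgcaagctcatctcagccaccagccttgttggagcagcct
Npy promoter, chr6:49822460-49822759, plus strand: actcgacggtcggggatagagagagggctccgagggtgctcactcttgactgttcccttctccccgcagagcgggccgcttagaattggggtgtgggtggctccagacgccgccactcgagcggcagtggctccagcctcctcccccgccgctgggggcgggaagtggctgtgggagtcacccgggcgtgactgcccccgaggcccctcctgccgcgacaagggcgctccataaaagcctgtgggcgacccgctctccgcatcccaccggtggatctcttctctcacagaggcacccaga
The half-site was found in the windows of Vip, Slc18a3, Chat and Dbh and not in that of Npy, so that it is shared by genes that differ in opposite directions. It occurs on either strand in 20.8% of the 32851 promoter windows of the genome. The letters TTCNNNGAA, bound by STAT factors downstream of gp130 cytokines, were in none of the 5 windows and in 8.3% of all windows. The letters TATAAA were in the Vip window alone, at 3 places that did not overlap another match, and in 13.6% of all windows.

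Ach1 came mostly from 1 mouse. Replicate 4 gave 55 of the 64 Ach1 neurons, 23.4% of its 235 neurons (exact Clopper-Pearson 95% interval 18.1% to 29.3%, which covers counting error only, as do all intervals given here). In replicates 1, 2, 3 and 5 they were 3 of 170, 2 of 235, 1 of 165 and 1 of 197 neurons, or 1.76%, 0.851%, 0.606% and 0.508%. The highest of these 4 mice was below the interval of replicate 4. The mean over the 5 mice was 5.43% ± 10.1 (SD, n = 5), against 0.932% ± 0.573 (SD, n = 4) without replicate 4. Ach2 was spread more evenly, with 13, 5, 6, 17 and 5 neurons in replicates 1 to 5, or 7.65%, 2.13%, 3.64%, 7.23% and 2.54% of the neurons (mean 4.64% ± 2.62, SD, n = 5). These counts include neurons whose barcode occurs in more than 1 library, which are described below. A further 2 Ach1 and 16 Ach2 neurons carry mouse names that could not be tied to 1 sample, and entered pooled values only. Values pooled over the mice other than replicate 4 include them, as 2 of 9 Ach1 and 16 of 45 Ach2 neurons. The sample labels give batch 2 for replicates 1 to 5 and batch 1 for the samples that no mouse name matched. The part of batch in the differences was not tested. Replicate 4 was the only mouse with 10 or more neurons of both subtypes, so that the comparison within a mouse has no replicate and no test was made.

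**Figure D1:**
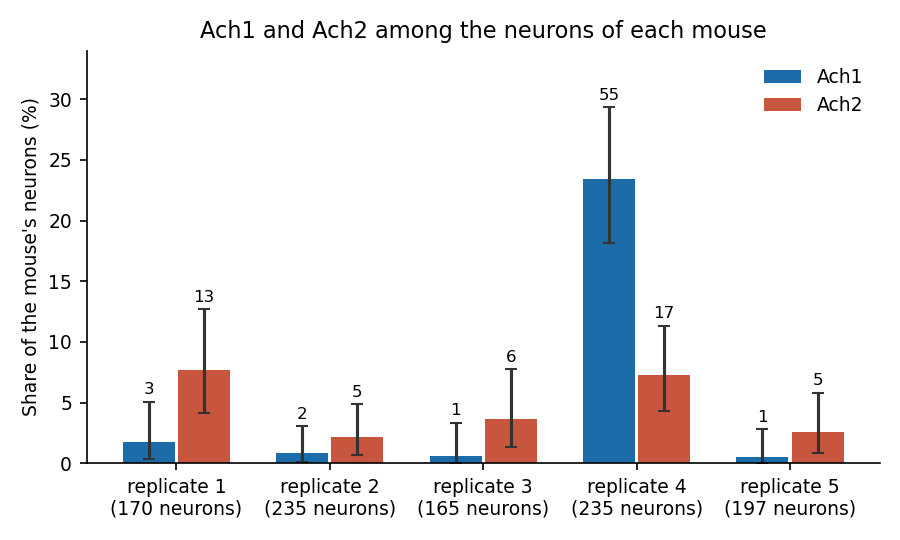
Share of the neurons of each mouse named Ach1 (blue) and Ach2 (red), in percent on a linear axis from 0, with exact 95% Clopper-Pearson intervals and the number of neurons above each bar. Ach1 made up 23.4% of the neurons of replicate 4 and at most 1.76% in the other 4 mice, while Ach2 lay between 2.13% and 7.65%. Neurons whose barcode occurs in more than 1 library are included.

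The libraries of replicates 1 to 5 share cell barcodes. In all, 73 neurons carry 21 barcodes that occur in more than 1 library, and they were named NA2 (55 neurons), Ach2 (15) and Glut (3), with 0 of the 64 Ach1 neurons among them. The 15 Ach2 neurons carry 4 barcodes, 1 of which is named NA2 in replicate 1. The barcode found in all 5 libraries had 29 to 36 Vip UMIs and 9 to 14 Cartpt UMIs in each of them. Another, found in 4 libraries, had 3 to 6 Sst UMIs and 6 to 8 Calca UMIs in each. Without neurons with a shared barcode, Ach2 made up 6.71%, 0.893%, 1.37%, 6.02% and 2.06% of the neurons of replicates 1 to 5 (mean 3.41%). Of the 17 Ach2 neurons of replicate 4, 4 carry a shared barcode and 13 do not, and the Ach2 values that these 4 neurons move most are given both ways.

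Depth differed between the subtypes. The replicates held between 916296 and 1196620 UMIs each. In replicate 4 the Ach1 neurons held 135426 UMIs, with a lowest, median and highest neuron of 1482, 2072 and 13078 UMIs, and a median of 1302 genes. The Ach2 neurons held 91926 UMIs, with 1910, 5236 and 12632 UMIs and a median of 2583 genes. The median share of UMIs from mitochondrial genes was 8.21% in Ach1 and 1.76% in Ach2. Of the 55 Ach1 neurons, 52 held between 1482 and 3206 UMIs and 3 held more than 5000. Outside replicate 4 the order was the opposite, with a median of 11268 UMIs in 9 Ach1 neurons and 3406 in 45 Ach2 neurons.

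The genes that make and carry acetylcholine were found in Ach2 and were rare or undetected in Ach1. Of the 8 listed genes of acetylcholine synthesis and transport, 6 had a mean level of at least 1 UMI per 10000 in either subtype of replicate 4, and 4 of these, Chat, Slc18a3, Slc5a7 and Chka, were at least 2-fold higher in Ach2. Chka, the gene of choline kinase, is on the list although its enzyme neither makes nor carries acetylcholine. Slc44a1, a choline transporter of many cell types, was higher in Ach1 by its means (1.00 and 0.218 UMIs per 10000), but on 14 and 3 UMIs (ratio of summed levels 3.17, 0.884 to 17.2). Of all 2688 genes at this level, 21.8% were at least 2-fold higher in Ach1 and 22.9% in Ach2. Outside replicate 4, 4 of 5 genes of the list were at least 2-fold higher in Ach2 and 0 in Ach1, beside 19.1% and 15.6% of the 2486 genes at the level there. Ratios used for these counts are of mean levels with 0.1 added to each. A gene that reached the level through only 1 subtype had to differ, so that counts of lists are a description and support nothing.

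Chat was detected in 20 of 62 Ach2 neurons of all mice and in 0 of 64 Ach1 neurons, a count that allows at most 4.69% of neurons to have a UMI. By mouse the Chat level of Ach2 was 0.892, 2.11, 0.307, 1.30 and 0 UMIs per 10000 in replicates 1 to 5, so that replicate 5, with 5 Ach2 neurons, had none. In replicate 4 the Ach2 neurons had a lowest, median and highest Chat level of 0, 0 and 4.72 and a mean of 1.30 UMIs per 10000, with a UMI in 8 of 17 neurons (47.1%, 23.0% to 72.2%). No Chat UMI was found in the 135426 UMIs of Ach1, so that the summed level was at least 6.87-fold higher in Ach2, counting 3 UMIs as the limit that a count of 0 allows. None of the other subtypes of replicate 4 had a Chat UMI either, with 0 of 156 neurons in the 5 NA subtypes.

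Slc18a3, the vesicular acetylcholine transporter, had a mean level of 0.328 UMIs per 10000 in Ach1 and 1.81 in Ach2 in replicate 4, and was detected in 4 of 55 (7.27%, 2.02% to 17.6%) and 10 of 17 neurons (58.8%, 32.9% to 81.6%). The neurons overlapped, from 0 to 6.18 in Ach1 and from 0 to 5.61 in Ach2. In the 5 NA subtypes of the same mouse 1 of 156 neurons had a UMI (0.641%, 0.0162% to 3.52%), and these neurons were deeper, with a median of 4552 UMIs. The mean level of these neurons was 0.0142 UMIs per 10000, on 1 UMI against 4 in Ach1, while the intervals of the shares overlap.

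Slc5a7, the choline transporter, gave 1 UMI in Ach1 and 16 UMIs in Ach2, a ratio of summed levels of 23.6 with a counting interval of 3.66 to 988. At least 1 of the 3 transcripts was present in 12 of 17 Ach2 neurons (70.6%, 44.0% to 89.7%) and in 4 of 55 Ach1 neurons (7.27%, 2.02% to 17.6%). All 3 were found in 5 Ach2 neurons and in no Ach1 neuron. Without the shared barcodes 10 of 13 Ach2 neurons had at least 1 of the 3. When the 29 Ach1 and 16 Ach2 neurons with at least 2000 UMIs were thinned to that number, the expected share with a UMI was 0% and 23.7% for Chat and 8.17% and 28.2% for Slc18a3 in Ach1 and Ach2. No Ach1 neuron thus had a Chat UMI. The name Ach1 is used here only as the authors' name, and outside replicate 4 the 9 Ach1 neurons are too few to show its absence.

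Vip was found in both subtypes, at a lower level in Ach1. In replicate 4 its lowest, median and highest levels were 0, 5.26 and 16.6 UMIs per 10000 in Ach1 and 0.792, 30.6 and 135 in Ach2, with means of 5.07 and 35.6, a ratio of 7.03 in favour of Ach2. By summed UMIs the ratio was 6.83 (5.15 to 9.18). Vip was detected in 37 of 55 Ach1 neurons (67.3%, 53.3% to 79.3%) and in 17 of 17 Ach2 neurons (100%, 80.5% to 100%). In the 5 NA subtypes it was detected in 24 of 156 neurons (15.4%, 10.11% to 22.02%) at a mean level of 0.416, so that the Vip of Ach1 lay above that of the NA subtypes although its neurons were shallower. The neurons of the subtypes overlapped. The 4 Ach2 neurons with shared barcodes were all above the Ach2 median, and without them the mean of Ach2 was 24.7 and the median 9.45 UMIs per 10000, which is below the highest Ach1 neuron.

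Outside replicate 4 the Ach1 neurons had little Vip. The level in Ach1 was 0.715, 0, 2.11, 5.07 and 0 UMIs per 10000 in replicates 1 to 5, and 3 of the 9 Ach1 neurons outside replicate 4 had a UMI, at a mean level of 0.472. In Ach2 it was 55.8, 74.7, 63.3, 35.6 and 41.2, of which the neurons with shared barcodes made up a part. Without them it was 41.6, 9.94, 10.0, 24.7 and 8.20, with 2 to 13 neurons a mouse, still above the highest mouse of Ach1. Over all mice the means were 4.42 in Ach1 and 84.5 in Ach2. The pooled Ach2 mean lay above that of each of replicates 1 to 5. It was raised by the 16 Ach2 neurons tied to no single sample, with a mean of 184. Replicates 2, 3 and 5 have only 1 or 2 Ach1 neurons each.

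**Figure D2:**
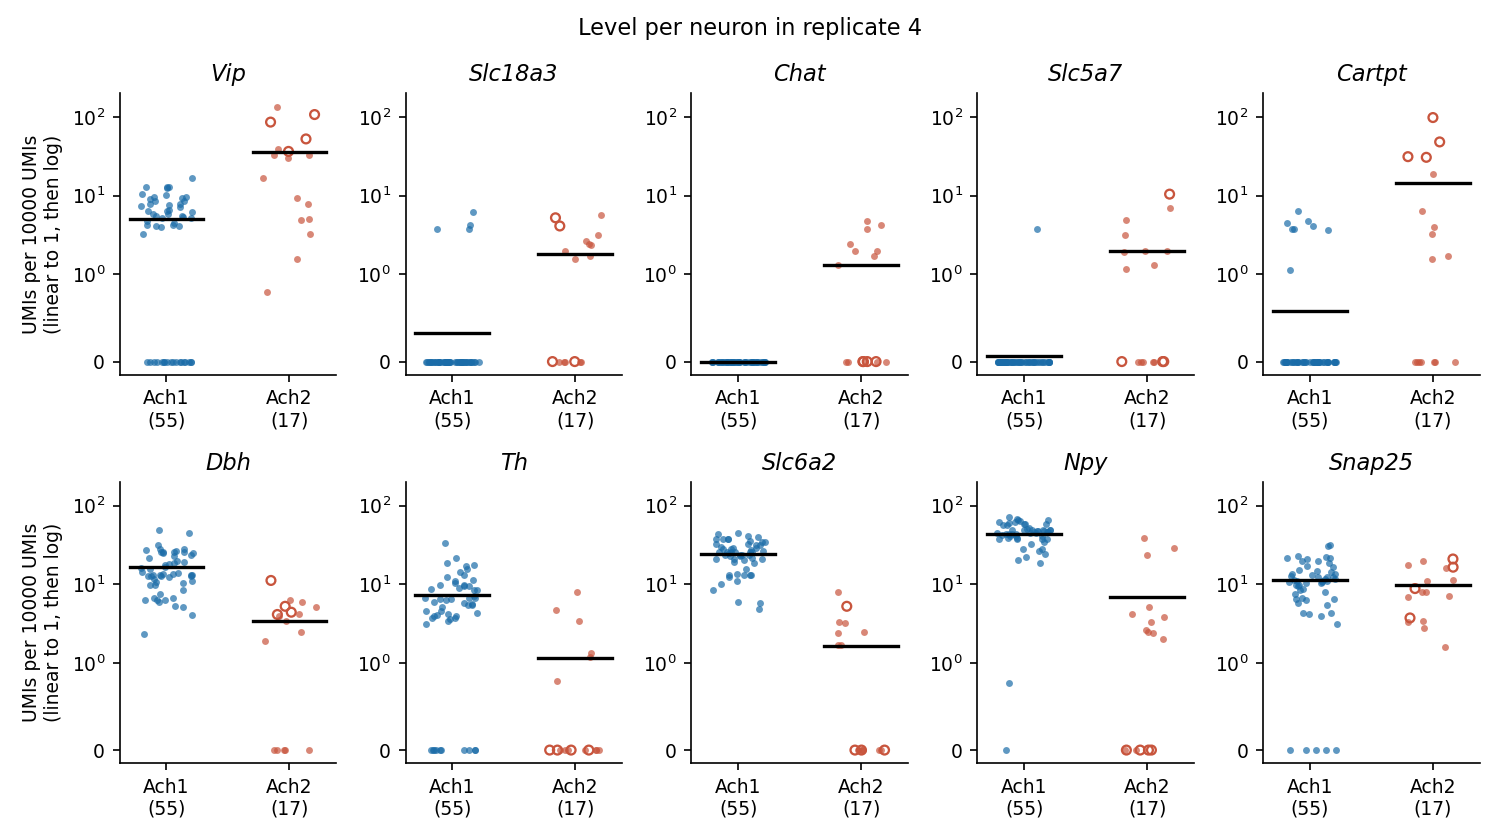
Level of 10 genes in each Ach1 (blue, 55) and Ach2 (red, 17) neuron of replicate 4, in UMIs per 10000 on an axis that is linear up to 1 and logarithmic above, with the mean as a black line and neurons with a shared barcode as open circles. No Ach1 neuron had a Chat UMI, while every Ach1 neuron had Dbh and Slc6a2, and the level of Snap25, a general neuronal gene, overlapped.

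Ach1 had the transcripts of the noradrenergic pathway. Of the 12 listed genes of noradrenaline synthesis, storage, uptake and breakdown, 11 had a mean level of at least 1 UMI per 10000 in either subtype of replicate 4. Of these 8 were at least 2-fold higher in Ach1 and 1, Pts, was at least 2-fold higher in Ach2, on 6 UMIs in each (ratio of summed levels 1.47, 0.394 to 5.51). Of all genes at the level, 21.8% were at least 2-fold higher in Ach1 and 22.9% in Ach2. Without the shared barcodes Pts no longer reached the level, and 8 of 10 genes were at least 2-fold higher in Ach1, beside 28.9% (Ach1) and 28% (Ach2) of 2808 genes. The median log2 ratio of Ach1 over Ach2 was 2.21 for the 11 genes and 0.03 for all genes. Outside replicate 4, 4 of 11 were at least 2-fold higher in Ach1 and 1 in Ach2, beside 15.6% and 19.1% of all genes. The median was 0.82 there, against -0.11 for all genes.

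Along the pathway, Th had means of 7.19 and 1.14 UMIs per 10000 in Ach1 and Ach2, a 6.33-fold ratio, and Ddc 7.86 and 1.15 (6.82-fold). Dbh, which makes noradrenaline from dopamine, had a lowest, median and highest level of 2.29, 13.5 and 49.0 in Ach1 and 0, 3.98 and 11.2 in Ach2, with means of 16.4 and 3.42 (4.79-fold). Dbh was detected in 55 of 55 and 12 of 17 neurons. The vesicular transporter Slc18a2 had means of 9.85 and 2.05 (4.81-fold). Slc6a2, which returns noradrenaline to the neuron, differed most, with 4.90, 25.5 and 44.2 in Ach1 and 0, 0 and 7.85 in Ach2, means of 24.6 and 1.63 and a 15.03-fold ratio. The neurons of the subtypes overlapped for Dbh and Slc6a2, but the median Ach1 neuron was above every Ach2 neuron for both genes. Dbh, Th and Slc6a2 were found together in 45 of 55 Ach1 neurons (81.8%, 69.1% to 90.9%) and in 3 of 17 Ach2 neurons (17.6%, 3.80% to 43.4%). Of the 12 Ach2 neurons with a cholinergic transcript, 9 also had a Dbh UMI.

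Dbh did not keep its direction outside replicate 4. In the other mice pooled its mean was 5.97 UMIs per 10000 in 9 Ach1 and 7.22 in 45 Ach2 neurons, and by mouse it was 3.96, 8.20, 2.11, 16.4 and 4.53 in Ach1 and 7.11, 4.69, 5.74, 3.42 and 3.74 in Ach2 for replicates 1 to 5. The pooled ratio over all mice, 14.9 against 6.18, therefore rested on replicate 4. The mean of Slc6a2 was higher in Ach1 in each of the 5 mice, with 6.39, 14.6, 14.8, 24.6 and 18.1 UMIs per 10000 against 2.37, 0, 1.03, 1.63 and 2.33 in Ach2. The Ach1 means by mouse rest on 3, 2, 1, 55 and 1 neurons. In replicate 1 single neurons overlapped for Slc6a2, from 3.35 to 7.92 in Ach1 and from 0 to 9.92 in Ach2. In replicate 4 the Slc6a2 level of Ach1 was above that of each NA subtype, which ran from 8.80 in NA3 to 18.8 in NA1b, and below that of Glut (77.1).

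Neuropeptides separated the subtypes in both directions. Npy, a cotransmitter that constricts vessels, had a lowest, median and highest level of 0, 45.4 and 71.3 UMIs per 10000 in Ach1 and 0, 2.45 and 39.3 in Ach2 of replicate 4, with means of 44.1 and 6.91 (6.38-fold, summed UMIs 5.15-fold, 3.99 to 6.73). It was detected in 54 of 55 and 11 of 17 neurons. The subtypes overlapped over the whole range of Ach2, and the median Ach1 neuron was above the highest Ach2 neuron. Without the shared barcodes the Ach2 mean was 9.04, and 11 of 13 Ach2 neurons had an Npy UMI. The mean of Npy was higher in Ach1 in every mouse, with 18.1, 37.3, 40.1, 44.1 and 58.9 in Ach1 and 4.62, 2.77, 1.46, 6.91 and 2.26 in Ach2 of replicates 1 to 5. The ranges of these means did not overlap, but those of Ach1 rest on 3, 2, 1, 55 and 1 neurons. In replicate 1 single neurons overlapped, from 1.98 to 41.3 in Ach1 and from 0 to 24.8 in Ach2. Galanin (Gal) had means of 8.79 and 3.75 in replicate 4, and 12.3 and 0.852 in the other mice.

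On the side of Ach2, Cartpt, the precursor of the CART peptide, had means of 0.583 UMIs per 10000 in Ach1 and 14.4 in Ach2 (24.7-fold), but its Ach2 level in replicate 4 rested on the shared barcodes. The lowest, median and highest Ach2 neuron had 0, 1.70 and 98.8, and without the 4 neurons with shared barcodes the mean was 2.74. In the other mice Cartpt was at 0 in the 9 Ach1 neurons, and 31.1 in Ach2, or 24.8 without shared barcodes. Calca, which encodes calcitonin gene-related peptide, gave 1 UMI in Ach1 and 14 in Ach2 of replicate 4 (ratio of summed levels 20.6, 3.14 to 872), but 5 without the shared barcodes, where the Ach2 mean was 0.675 in place of 2.72. Sst, which encodes somatostatin, gave 1 and 7 UMIs (10.3, 1.32 to 465), and 4 in Ach2 without the shared barcodes (mean 0.555 in place of 1.15). Of the 7 neuropeptide genes at the level, 3 (Npy, Gal and Scg2) were at least 2-fold higher in Ach1 and 4 (Cartpt, Calca, Sst and Vip) in Ach2, which became 2 and 2 of 5 without the shared barcodes and was 2 and 5 of 8 outside replicate 4. Of all genes at the level in replicate 4, 21.8% were at least 2-fold higher in Ach1 and 22.9% in Ach2. Vip and Npy were found together in 37 of 55 Ach1 neurons (67.3%, 53.3% to 79.3%) and 11 of 17 Ach2 neurons (64.7%, 38.3% to 85.8%). Without the shared barcodes both were in 11 of 13 Ach2 neurons (84.6%, 54.6% to 98.1%).

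The granins and enzymes that process peptide precursors were divided. Of 10 at the level, 5 were at least 2-fold higher in Ach1 and 2 in Ach2, beside 21.8% and 22.9% of all genes. Those higher in Ach1 included carboxypeptidase E (Cpe, means of 5.98 and 0.892 UMIs per 10000), Scg2 (3.97 and 0.743), Chga (4.21 and 1.04) and Chgb (3.04 and 0.751). The 2 that were at least 2-fold higher in Ach2 were Pam (2.41 and 6.42), which amidates peptides, and Vgf (0.655 and 1.46). Outside replicate 4, 0 of 11 were 2-fold higher in Ach1 and 6 in Ach2, beside 15.6% and 19.1% of all genes.

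General neuronal genes were mostly alike in level in replicate 4. Of the 16 neuronal identity genes, all of which reached the level, 14 were within 2-fold, with a median log2 ratio of -0.05. Stmn2 had means of 24.6 and 24.2 UMIs per 10000, Pcsk1n 27.9 and 28.6, Snap25 11.4 and 9.80 and Prph 22.8 and 28.6 in Ach1 and Ach2. Of 21 synaptic vesicle genes, 16 were within 2-fold, 4 were higher in Ach1 and 1 in Ach2, beside 21.8% and 22.9% of all genes. Outside replicate 4, 6 of 15 neuronal identity genes were at least 2-fold higher in Ach2 and 0 in Ach1, with a median log2 ratio of -0.77, and of 21 synaptic vesicle genes 3 were higher in Ach1 and 1 in Ach2. On the side of Ach1 was Nefh, a neurofilament gene, on 13 and 2 UMIs (ratio of summed levels 4.41, 0.999 to 40.3). On the side of Ach2 was Rbfox3, the gene of the NeuN antigen, with 0 UMIs in Ach1 of any mouse and a UMI in 8 of 17 Ach2 neurons of replicate 4, at least 4.91-fold higher in Ach2 by summed UMIs. Of 35 cytosolic ribosomal protein genes, 33 were within 2-fold and 2 were higher in Ach1.

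Among transcription factors of sympathetic neurons, 14 of 23 reached the level. Of these, 4 were at least 2-fold higher in Ach2 and 2 in Ach1, beside 22.9% and 21.8% of all genes. Ebf1 was the most abundant of the 4, with means of 0.583 and 11.6 UMIs per 10000 (19.9-fold), a UMI in 7 of 55 Ach1 and 15 of 17 Ach2 neurons, and 1.71 and 5.81 in the other mice. Without the shared barcodes its Ach2 mean was 14.4. Sox11 had 0.209 and 2.95, Casz1 0.407 and 2.67 and Zfhx3 1.25 and 3.92. The 2 on the side of Ach1 rested on few UMIs, with 15 and 2 for Sox4 (ratio of summed levels 5.09, 1.18 to 45.9) and 18 and 5 for Tfap2b (2.44, 0.874 to 8.42). Hand2, Phox2a and Isl1, which specify the sympathetic lineage, were within 2-fold. Of the receptors and signal carriers of gp130 cytokines, the family known to turn sympathetic neurons cholinergic, 4 of 10 reached the level. Stat3 was at least 2-fold higher in Ach2 (0.670 and 3.53 UMIs per 10000), Jak1 in Ach1 (1.19 and 0.405, on 15 and 4 UMIs), and Lifr and Cntfr were within 2-fold.

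Of 12 sodium and calcium channel genes at the level, 8 were at least 2-fold higher in Ach2 and 2 in Ach1, beside 22.9% and 21.8% of all genes. Cacna1a, the pore of P/Q-type calcium channels, had means of 0.303 and 4.30 UMIs per 10000, and Scn2a 0.463 and 4.11, while Scn2b and Scn7a lay on the side of Ach1. Scn2b had 17 and 2 UMIs (ratio of summed levels 5.77, 1.37 to 51.5) and Scn7a 14 and 1 (9.50, 1.45 to 402). Outside replicate 4, 4 of 14 channels were 2-fold higher in Ach2 and 1 in Ach1, beside 19.1% and 15.6% of all genes. There Scn2b was lower in Ach1, at 0.0986 and 1.04 UMIs per 10000. Of the G protein-coupled receptors, 3 of the 18 in the data reached the level. The relaxin receptor Rxfp1 had 19 UMIs in Ach1 and 1 in Ach2 (ratio of summed levels 12.9, 2.05 to 536), with means of 2.58 and 0.216 UMIs per 10000 in the other mice.

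**Figure D3:**
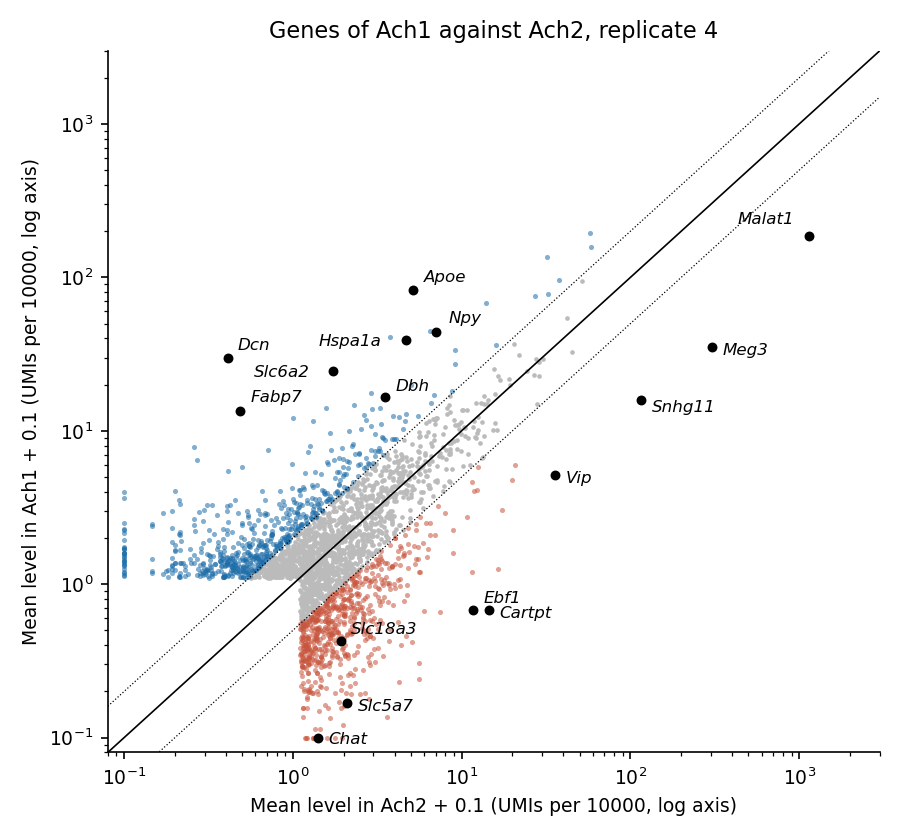
Mean level in Ach1 against mean level in Ach2 in replicate 4 for the 2688 genes with at least 1 UMI per 10000 in either subtype, with 0.1 added and both axes logarithmic, the solid line marking equal levels and the dotted lines 2-fold. Blue genes (21.8%) were at least 2-fold higher in Ach1 and red genes (22.9%) in Ach2, and the black points are genes given in the text.

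The genes with the largest ratios were chosen as those with a mean of at least 3 UMIs per 10000, a UMI in at least 25% of the neurons of the higher subtype and the same direction in the pooled neurons of the other mice. On the side of Ach1 the 15 were led by Dcn, which encodes the matrix protein decorin, with means of 29.5 and 0.310 UMIs per 10000 in replicate 4 and 94.5 and 0.416 in the other mice. By mouse its Ach1 level was 40.7, 85.3, 0 and 13.6 in replicates 1, 2, 3 and 5. The mean of 94.5 was raised by the 2 Ach1 neurons tied to no single sample, at 272. Next were Cd74 (at least 10.2-fold by summed UMIs) and Ifitm3 (at least 12.7-fold), both with 0 UMIs in Ach2 of replicate 4. Others were Apod, Fabp7, Nr4a1, Smoc2, Apoe, Gpm6b, Slc6a2, Abca8a, Sparc, Paip2b and mt-Nd4l, and 1 transcript known only by a number. Of these 15, Slc6a2 was the 1 gene of noradrenergic transmission. Of all genes at least 2-fold higher in Ach1 in replicate 4, 58.1% were also higher in Ach1 in the other mice, beside 39.8% of the 2688 genes.

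On the side of Ach2 the 15 held Cartpt, Dock4 (means of 0.129 and 4.17 UMIs per 10000), Ebf1, Chka, Syne1, Cacna1a, Stx16, Iqgap1, Meg3, Slc5a3 and Scn2a, and 4 transcripts known only by a number. Chka encodes choline kinase, which uses choline for membrane lipids, and had means of 0.322 and 4.99. Slc5a3 encodes the inositol transporter and had 0.283 and 3.08. Of all genes at least 2-fold higher in Ach2, 64.4% were also higher in Ach2 in the other mice, beside 60.2% of the 2688 genes. Apart from Malat1, the most abundant named transcripts other than mitochondrial and ribosomal genes were Apoe (82.1) and Gnas (54.0) in Ach1, and Meg3 (305), Snhg11 (116) and Fth1 (44.6) in Ach2.

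Transcripts of satellite glia, the cells that wrap the neurons of the ganglion, were much higher in Ach1. The summed level of the 16 listed genes had a lowest, median and highest neuron of 36.5, 145 and 343 UMIs per 10000 in Ach1 and 2.36, 9.53 and 53.0 in Ach2 of replicate 4. Of 12 members at the level, 11 were at least 2-fold higher in Ach1 and 0 in Ach2, beside 21.8% and 22.9% of all genes. Apoe, a lipid carrier, had a lowest, median and highest level of 17.1, 85.0 and 129 in Ach1 and 0, 3.30 and 33.4 in Ach2. Fabp7, a marker of satellite glia, had means of 13.4 and 0.386. Members without a UMI were 1 of 16 in Ach1 (Kcnj10) and 4 of 16 in Ach2 (Kcnj10, Cdh19, Sdc4 and Erbb3). The mean sums of the other mice were 71.6 and 15.6. There 7 of 9 members were at least 2-fold higher in Ach1, beside 15.6% of the 2486 genes at the level. Of the other subtypes of replicate 4, NA3 had a higher mean sum (238) than Ach1 (142).

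Fibroblast genes followed. Of 14 members 8 reached the level, and each of the 8 was at least 2-fold higher in Ach1, beside 21.8% of all genes. The summed level had a lowest, median and highest neuron of 15.6, 45.7 and 593 UMIs per 10000 in Ach1 and 0, 2.45 and 10.5 in Ach2. No Ach2 neuron thus reached the lowest Ach1 neuron. The mean sums of the other mice were 175 and 2.26, and there the lowest, median and highest Ach1 neuron had 6.33, 87.2 and 624. Of the 14 members 1 (Dpt) had no UMI in Ach1 and 6 had none in Ach2. Dcn rested in part on 2 deep Ach1 neurons, which held 557 of its 795 UMIs, and its mean was 21.9 in the 52 Ach1 neurons of up to 5000 UMIs. Dcn was still detected in 54 of 55 Ach1 neurons and in 3 of 17 Ach2 neurons. Col1a1 was at 0 in Ach2 of any mouse and had a UMI in 19 of 55 Ach1 neurons. Of 5 Schwann cell genes at the level 4 were at least 2-fold higher in Ach1, with sums of 0, 11.4 and 41.1 in Ach1 and 0, 3.98 and 10.5 in Ach2. Of the 12 Schwann cell genes, 4 had no UMI in Ach1 and 5 none in Ach2, and the mean sums of the other mice were alike (7.42 and 7.19).

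The 4 immune cell genes at the level, Cd74, Lyz2, C1qa and C1qb, were all at least 2-fold higher in Ach1, beside 21.8% of all genes. Of 12 members 2 were at 0 in Ach1 and 8 in Ach2. The immune sums were 0, 8.24 and 33.2 UMIs per 10000 in Ach1 and 0, 0 and 5.24 in Ach2, and 11.9 and 1.85 on average in the other mice. No endothelial or smooth muscle gene reached the level in replicate 4, with highest sums of 13.0 and 6.61 in Ach1 and 1.99 and 1.96 in Ach2. Of 10 endothelial members 2 were at 0 in Ach1 and 9 in Ach2, and of 10 smooth muscle members 5 and 9. The part of these cell types in the other differences between Ach1 and Ach2 was not tested.

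**Figure D4:**
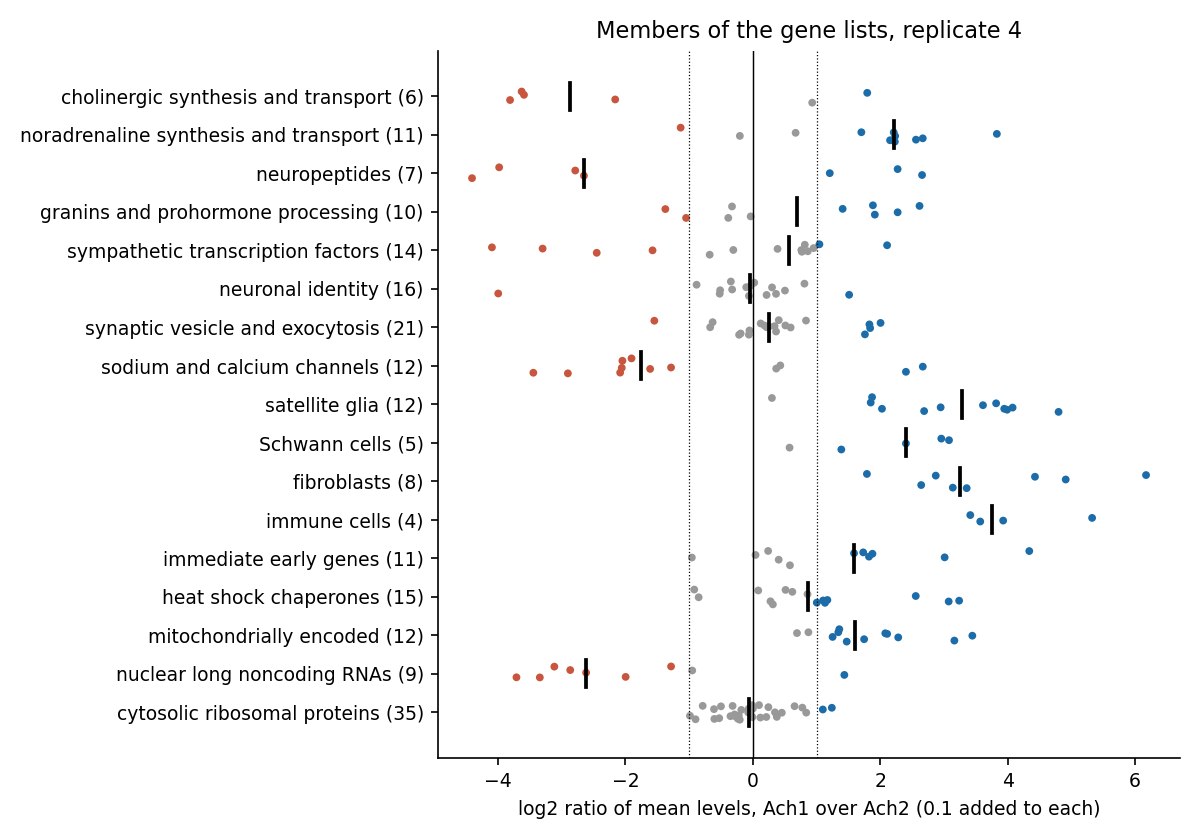
Log2 ratio of the mean levels of Ach1 over Ach2 in replicate 4 for each member of 17 gene lists that reached the level (number in brackets), with the list median as a black bar, dotted lines at 2-fold and members beyond them in blue (Ach1) or red (Ach2). Cholinergic genes and nuclear noncoding RNAs lay mostly on the side of Ach2 and noradrenergic, glial, fibroblast and immune genes on that of Ach1.

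Stress and activity genes also stood on the side of Ach1. Of 15 heat shock chaperones 7 were at least 2-fold higher in Ach1 and 0 in Ach2, beside 21.8% and 22.9% of all genes. Hspa1a, the inducible HSP70, had a lowest, median and highest level of 9.80, 39.9 and 71.4 UMIs per 10000 in Ach1 and 0, 1.32 and 23.8 in Ach2, and 28.6 and 3.99 on average in the other mice. The neurons overlapped between 9.80 and 23.8. Cryab, a small chaperone, had 28 and 2 UMIs (ratio of summed levels 9.50, 2.40 to 82.3). Of 11 immediate early genes 6 were at least 2-fold higher in Ach1 and 0 in Ach2. Jun had means of 10.6 and 2.82 and Egr1 5.11 and 1.37, and Nr4a1 had 45 and 1 UMIs (ratio of summed levels 30.5, 5.21 to 1233). Outside replicate 4, 13 of 15 immediate early genes and 5 of 15 chaperones were at least 2-fold higher in Ach1, beside 15.6% of all genes.

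Mitochondrially encoded and nuclear transcripts differed in opposite directions. Their counts stand beside 21.8% of all genes at least 2-fold higher in Ach1 and 22.9% in Ach2. Of 12 mitochondrial genes at the level 10 were at least 2-fold higher in Ach1, such as mt-Nd4l (means of 40.9 and 3.66 UMIs per 10000) and mt-Co1 (135 and 31.9), and the sums had a lowest, median and highest neuron of 132, 821 and 1361 in Ach1 and 15.04, 176 and 1236 in Ach2. Without the shared barcodes the median of Ach2 was 115 and the highest 481. Then 12 of 12 genes were at least 2-fold higher in Ach1, beside 28.9% of all genes. Of 9 nuclear long noncoding RNAs 7 were at least 2-fold higher in Ach2. Malat1 had a lowest, median and highest level of 87.8, 157 and 999.8 in Ach1 and 35.2, 1155 and 3300 in Ach2, where the low Ach2 values were the 4 neurons with shared barcodes. The other 13 Ach2 neurons ran from 723 upwards, with 1 of 55 Ach1 neurons above the lowest of them. Meg3, transcribed from an imprinted locus, had means of 35.03 and 305 (393 without the shared barcodes), Snhg11 15.8 and 116, Kcnq1ot1 1.15 and 16.3 and Mirg 0.359 and 4.56. The other mice had Malat1 means of 703 and 613 and Meg3 means of 191 and 254 in Ach1 and Ach2, and 1 of 12 mitochondrial genes was at least 2-fold higher in Ach1, so that the pooled neurons of the other mice, shared barcodes included, did not show differences of this size. Without the shared barcodes Ach2 had Meg3 means of 414, 755, 421 and 517 in replicates 1, 2, 3 and 5, against 239, 136, 409 and 18.1 in Ach1. Malat1 means were 700, 709, 899 and 1439 against 742, 448, 1004 and 158. These Ach1 means rest on 3, 2, 1 and 1 neurons. Low Meg3 was shared in replicate 4 by NA2 (8.72) and Glut (4.35). Depth and mitochondrial share moved with these transcripts, and their part in the differences was not tested.

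The Ach1 neurons of replicate 4 differed little from each other. For each gene with a mean of at least 1 UMI per neuron, the dispersion was computed as the variance of its UMIs over what sampling from 1 common profile at each neuron's depth would give, so that 1 means sampling alone. Over the 285 such genes that Ach1, Ach2 and NA2 share, the median dispersion was 1.16 in Ach1, 2.20 in Ach2 (1.74 without shared barcodes) and 1.38 in NA2. The share of these genes below 1.5 was 83.2% in Ach1, 22.8% in Ach2 (40.0% without shared barcodes) and 59.3% in NA2. In the 52 Ach1 neurons of up to 5000 UMIs the median was 1.01 and the share 95.1%. In these 52 neurons it was 0.619 for Npy, 1.08 for Apoe, 1.07 for Hspa1a, 0.668 for Dcn and 0.737 for Vip. Each of the 52 held 8 to 41 Apoe UMIs and 3 to 16 Npy UMIs. Of the abundant genes Meg3 (8.07) and Malat1 (2.88) were the most variable given here. In Ach2 the dispersion of Vip was 28.0 and of Npy 10.0. The depth of the 52 neurons spans less than that of Ach2. This dispersion also rises with depth where neurons vary by the same proportion. Median depth was 1996 UMIs in the 52 neurons, 5236 in Ach2 (5886 without shared barcodes) and 2300 in NA2, so that the values of Ach1 and Ach2 are not on equal terms. What the uniformity of Ach1 comes from was not tested.

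By their mean profiles in replicate 4, over 4457 genes, Ach1 was most like NA2 (Pearson r of natural log levels 0.842), and its r with Ach2 was 0.693. Ach2 was most like NA1a (0.853). Outside replicate 4 the 9 Ach1 neurons were most like NA3 (0.830), and r between Ach1 and Ach2 was 0.741. These correlations are across genes of the same libraries, and genes are not independent replicates.

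**Figure D5:**
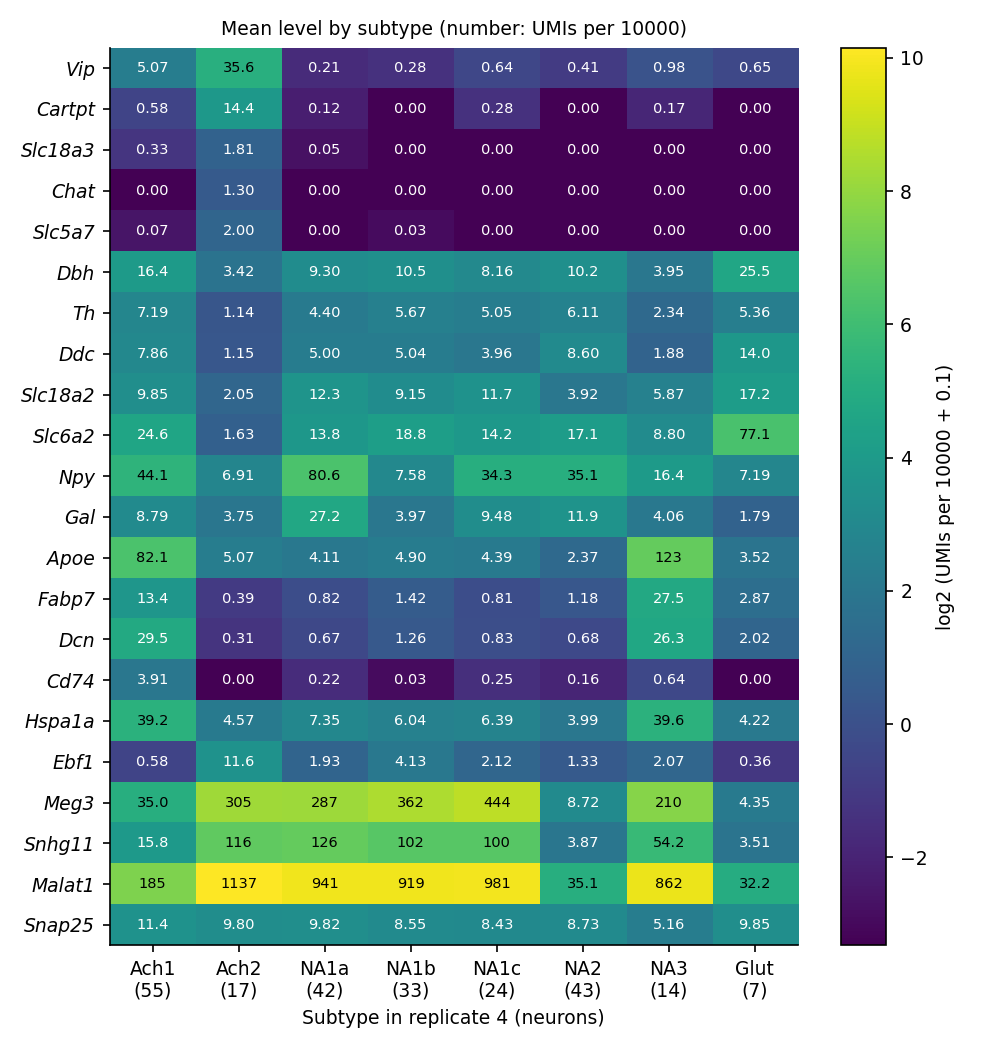
Mean level in UMIs per 10000 (number in each cell, colour on a log2 scale with 0.1 added) of 22 genes in the 8 subtypes of replicate 4, with the number of neurons in brackets. Chat was at 0 in every subtype but Ach2, Dbh and Slc6a2 were higher in Ach1 than in any NA subtype, and Apoe, Fabp7, Dcn and Hspa1a were high in Ach1 and NA3.

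No GFP or tdTomato UMI was found in an Ach1 or Ach2 neuron of any mouse, so that at most 4.69% of 64 and 4.84% of 62 neurons would have one. A neuron without a reporter UMI cannot be told apart from a labelled neuron whose reporter was not captured.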

How the data were processed

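Single-cell RNA-seq was measured in stellate ganglia of C57BL6/J mice. The deposited table holds natural log values, ln(1 + UMIs per 10000), of 19224 genes in 1303 neurons, which the authors made with Cell Ranger 2.1.1 and, per the labels, Seurat and Scanpy, and which they annotated by subtype. UMIs were recovered by taking each neuron's lowest nonzero value as 1 UMI, and 100% of nonzero values lay within 0.01 of a whole number. Of 8 mouse names, 5 matched 1 sample and were taken as replicates 1 to 5, and 3 names (301 neurons) did not and entered pooled values only. No doublet caller was applied here, and none is named in the sources used here. Levels are means of UMIs per 10000, with exact Poisson intervals for summed UMIs and exact Clopper-Pearson intervals (95%) for shares. Genes were compared at a mean of at least 1 in either subtype with 0.1 added, and 2-fold was the limit. No test was made between the subtypes, since 1 mouse had 10 or more neurons of both subtypes and the subtypes were clustered on the same values. Values over the 5 mice were flagged by the gap to the next mouse only. Where a group had no UMI, 3 UMIs were taken as the limit.

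The genes named are the 5 markers, the transmitter enzymes and transporters, up to 4 members of a list with the largest ratios, the 15 genes a side described in the text and the 5 genes of highest level in each subtype other than mitochondrial and ribosomal protein genes. Members of lists that were named because they lay within 2-fold, or to complete a count, were chosen after their values were seen. The neurons and 30 lists were chosen with earlier results of these data known. Leaving out shared barcodes and Ach1 neurons of more than 5000 UMIs were alternatives added after the data were seen. Python 3.11.15, NumPy 2.4.6, pandas 2.3.3 and SciPy 1.17.1 were used, and the recovery of UMIs and of folds was tested on simulated data. Some items are not reported here.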

Additional observations from a re-analysis of the deposited data

Results flagged for a closer look

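Of 29 values examined over the 5 mice (the shares of both subtypes and levels of genes in Ach2), 1 stood apart from the other mice: the share of neurons named Ach1 in replicate 4, 23.4%, against 1.76% in the next mouse and 0.508% in the lowest. Its gap to the next mouse was 0.945 of the whole range, above the critical value of 0.71 for 5 samples. Replicate 4 was compared within the mouse because of its counts of these same neurons, so that the flag is a description and supports nothing. Chance sets about 1 in 20 such groups apart. The depth of these neurons, their mitochondrial share and their glial, fibroblast and immune transcripts differed from those of the Ach2 neurons of the same mouse, and the part of these in the share was not tested.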

How the results depend on the processing

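Of 127 alternatives computed, 101 kept the value within set limits, 25 moved it further and 1 reversed it. For levels the limits were the counting interval set around the value, for shares of mice 1 SD and for counts of genes 1.5 times. For shares of neurons with a UMI they ran between the far ends of 2 intervals. These limits are wider than a counting interval of the difference. Slc18a3 going from -51.6 to -20.0 percentage points and Chat from -47.1 to -23.7, both thinned to 2000 UMIs, were thus among the 101. The level of Chat had no lower limit. Some of the 101 could not move. For counts of genes and levels, the limits of 1000 and 2000 UMIs only left out shallower neurons, and no neuron fell below 1000. Leaving out deep Ach1 neurons could not change Chat, which had no UMI in Ach1. The counts of genes at least 2-fold higher in Ach1 and Ach2 in replicate 4, 585 and 616, became 2883 and 2402 with no filter on level, 168 and 114 at a level of at least 3 and 239 and 233 with 1 added to each level. Pooling all mice gave 326 and 367, and all mice but replicate 4 gave 388 in Ach1. The median log2 ratio over all genes, 0.03 in replicate 4, was 0.19 without the shared barcodes and -0.11 in the other mice. Without the shared barcodes the log2 ratio of Ach1 over Ach2 in replicate 4 went from -2.79 to -2.26 for Vip and from 2.66 to 2.27 for Npy, and pooled over all mice that of Npy went from 3.29 to 2.92. The pooled log2 ratio of Vip, -4.23, was -4.78 by summed UMIs and -5.01 by mouse means, and ran from -7.49 (without replicate 4) to -4.20 with 1 mouse left out. For Dbh it was 1.26 over all mice, 0.50 by mouse means, and ran from -0.27 (without replicate 4) to 1.37 with 1 mouse left out. With 1 mouse left out, it ran from -3.48 to -2.62 for Slc18a3, from -3.68 to -3.45 for Chat and from 3.19 to 3.46 for Npy. Thinned to 1000 UMIs, the share in Ach1 minus that in Ach2 went from -51.6 to -13.9 percentage points for Slc18a3, from -47.1 to -12.0 for Chat and from 33.5 to 65.0 for Npy. By medians over neurons the log2 ratio of summed levels was 3.92 for satellite glia (3.46 by means), 6.38 for immune cells (3.25) and 0 for endothelial cells (3.01). The immune median of Ach2 and the endothelial medians of both subtypes were 0, so that the added 0.1 set the last 2 ratios. In all mice but replicate 4 it was 2.19 for satellite glia, 0.047 for Schwann cells (1.61 in replicate 4) and 6.21 for fibroblasts (4.16). Thinning lowers shares by construction, the filters change how many genes are compared, and at a median of 0 the added 0.1 sets the ratio. The cause of the other changes was not tested. No paired analysis was made, although the 5 mice all held both subtypes and their values are given by mouse. Replicates 1, 2, 3 and 5 had only 3, 2, 1 and 1 Ach1 neurons, and the subtypes were clustered on the same values. A median Ach1 neuron of replicate 4 held 2072 UMIs, which limits the detection of genes of low level.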

Other observations

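Other gene lists were compared between Ach1 and Ach2 in replicate 4 in the same way. Their counts stand beside 21.8% of all genes at least 2-fold higher in Ach1 and 22.9% in Ach2. Of 16 adhesion and axon guidance genes at the level, 4 were at least 2-fold higher in Ach2 and 2 in Ach1. Cntn5, a contactin of the cell surface, had 1 UMI in Ach1 and 45 in Ach2 (ratio of summed levels 66.3, 11.3 to 2676), but means of 1.65 and 1.82 UMIs per 10000 in the other mice. Cntn1 had 19 and 1 UMIs (12.9, 2.05 to 536). Epha5, an ephrin receptor, had means of 2.79 and 7.83 in replicate 4 and 6.65 and 3.45 in the other mice, the opposite order.

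Of 4 potassium channel genes at the level 2 were at least 2-fold higher in Ach1, Kcnq3 (2.65 and 1.19 UMIs per 10000) and Kcnc4 (2.84 and 1.22). Of 5 neurotrophin and GDNF family receptors 2 were at least 2-fold higher in Ach1. Among them Ngfr had means of 2.86 and 0.956 in replicate 4 and 1.95 and 1.99 in the other mice. Of 4 nicotinic and serotonin receptor channels Chrnb4 was higher in Ach1, on 17 and 3 UMIs (3.85, 1.11 to 20.5), and Htr3b in Ach2, on 8 and 6 UMIs (1.105, 0.316 to 3.63).

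Of 7 genes of the nerve injury response 2, Jun and Atf3, were at least 2-fold higher in Ach1 and 1, Sox11, in Ach2. The 2 chromaffin cell genes at the level, Chga and Chgb, which neurons also express, were both higher in Ach1. No glutamatergic or Hox gene reached the level. Of 22 subtype genes shown in the study's figures, 11 were at least 2-fold higher in Ach1 and 4 in Ach2. The study chose these on the same neurons, so that this count is not independent evidence.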
